A study of Mus musculus with 2 samples.

Results

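Regulatory T cells were the T cells in which the transcription factor gene Foxp3 was detected in MC38 tumours, and 147 of the 30547 cells kept from both libraries met the rule. A cell was kept with at least 800 unique molecular identifiers (UMIs, each a tagged RNA molecule) and at most 20% of them from mitochondrial genes. Regulatory T cells were then chosen by their own counts: each had at least 1 UMI of Cd3d, Cd3e, Cd3g or Trac, at least 1 of Foxp3 and 0 of Cd8a and Cd8b1, with at most 3 UMIs of C1qa, C1qb and C1qc together (complement genes of macrophages) and at most 2 of Hmga2 and Rhox5 together (genes of the tumour cells). The rule selected 70 of 13096 cells in the control library and 77 of 17451 cells in the knockdown library. The sample records give 6000 cells loaded and 3000 targeted per library, fewer than the barcodes kept. Kept barcodes are called cells here, but at that loading they cannot all be single intact cells. The study sequenced dissociated tumours of MC38, a mouse colon carcinoma line, with a droplet-based assay that reads the 3′ end of transcripts, and the series text gives its purpose as the effect of losing MBTPS1 on the cells around the tumour. Mbtps1 encodes the protease that cuts and activates the SREBP and ATF6 transcription factors. The control library carries the genotype label Mbtps1 WT, and the knockdown library the label Mbtps1 KD and the title SHM, while the series text calls the same group a knockout. There was 1 library per group. The number, strain, sex and age of the mice, whether tumours were pooled, and in which cells Mbtps1 was reduced were not stated in the sources used here.

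Regulatory T cells are CD4 T cells that restrain other immune cells. They depend on Foxp3, carry the high-affinity interleukin-2 receptor and take interleukin-2 from their surroundings, and they act through inhibitory surface receptors such as Ctla4, through adenosine-forming enzymes, and through interleukin-10 and transforming growth factor beta. In mouse tumours they often have an activated state with costimulatory receptors of the TNF receptor family, Icos and granzyme B.

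With 1 library per group no difference between the libraries could be tested, and no p-value is given. Values are UMIs summed over the cells of a class and divided by their total, in CPM (counts per 1e6 UMIs), with exact Poisson intervals, exact conditional binomial intervals for ratios and Clopper-Pearson intervals for shares, all at 95% and all for counting error only. The regulatory T cells summed to 227828 UMIs in control and 144797 in knockdown. They were shallower in knockdown, with a median of 1585 UMIs per cell (range 822 to 6143) against 2355 (range 871 to 15763). In control 9 cells with over 5000 UMIs held 37.8% of the summed UMIs, and in knockdown 3 such cells held 11.98%. Free RNA, estimated from macrophage and tumour markers against the droplets with at most 100 UMIs, came to 10.2% of the regulatory T UMIs in control and 24.7% in knockdown. The libraries shared 55 barcodes among their kept cells, and 0 regulatory T barcodes of either library were kept in the other.

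Mbtps1 itself was too sparse to compare in these cells. It gave 5 UMIs in control regulatory T cells (21.95 CPM, 7.13 to 51.2) and 4 in knockdown ones (27.6 CPM, 7.53 to 70.7), so that the knockdown could not be checked in them at this depth. In the tumour-type cells (at least 5 UMIs of Hmga2 and Rhox5) it stood at 28.8 CPM (27.8 to 29.9) in control and 12.6 CPM (11.9 to 13.3) in knockdown, and in CD8 T cells at 29.4 and 31.6 CPM.

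The label was checked with Ikzf2, Il2ra and Tnfrsf4, which the rule did not use. Ikzf2, which encodes the transcription factor Helios, reached 2502 CPM (2301 to 2716) in control and 2410 CPM (2164 to 2677) in knockdown. Il2ra, the alpha chain of the interleukin-2 receptor, reached 891 CPM (773 to 1022) and 780 CPM (643 to 938). Tnfrsf4, the costimulatory receptor OX40, reached 1396 CPM (1247 to 1558) and 1547 CPM (1351 to 1763). The levels in both libraries were above those of conventional CD4 T cells, defined as T cells with at least 1 Cd4 UMI and 0 of Foxp3 and Cd8. Ikzf2 stood there at 901 and 619 CPM, Il2ra at 388 and 181 CPM, and Tnfrsf4 at 638 and 636 CPM. In CD8 T cells Ikzf2 stood at 259 and 199 CPM, and in macrophage-type cells (at least 20 C1q UMIs) at 9.69 and 11.7 CPM. The order regulatory T, conventional CD4 T, CD8 T, macrophage-type held for these 3 markers in both libraries. The conventional cells were chosen for 0 Foxp3 UMIs and can include regulatory T cells in which Foxp3 was missed.

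**Figure D1:**
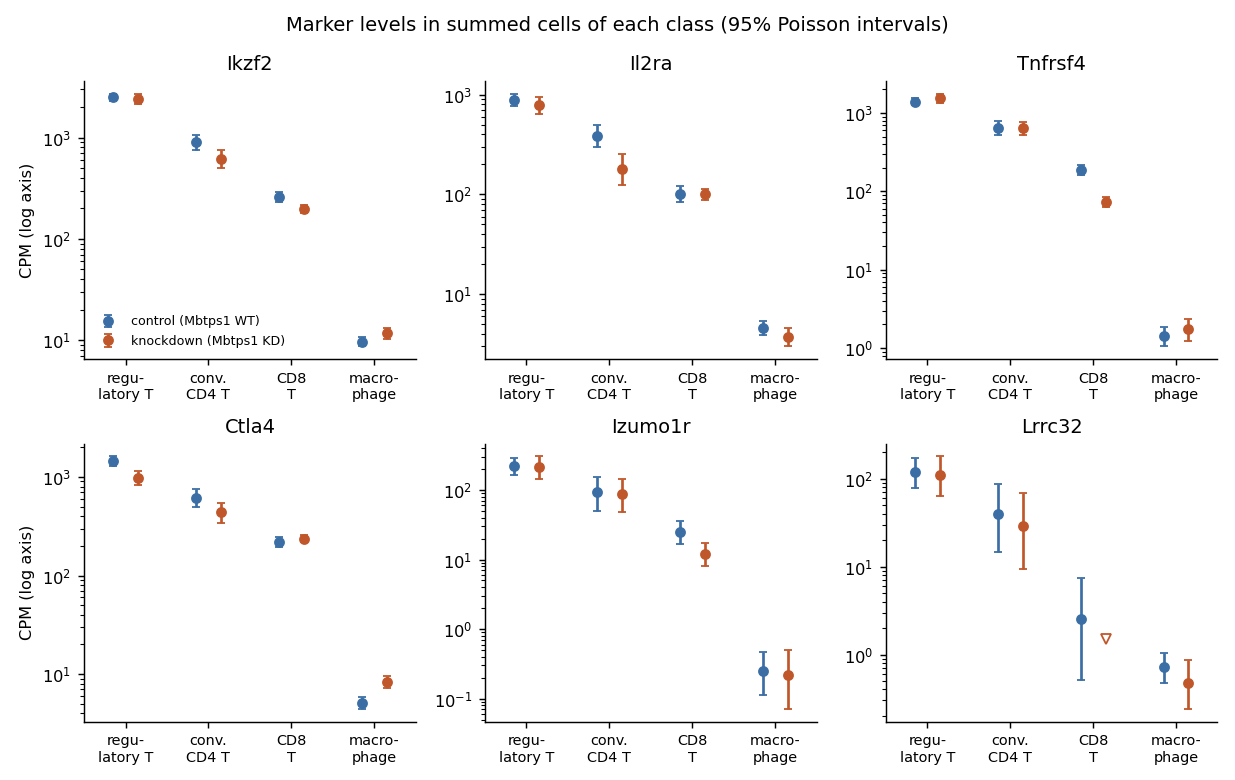
Levels in CPM (log axis) of 6 marker genes in the summed regulatory T, conventional CD4 T (conv.), CD8 T and macrophage-type cells of the control and knockdown libraries. Points are the value of 1 library with its 95% Poisson interval, the open triangle is the upper limit where 0 UMIs were counted, and the regulatory T points are the highest in every panel (Ikzf2 2502 and 2410 CPM against 901 and 619 CPM in conventional cells).

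Within single cells the markers were also found together. All 3 of Ikzf2, Il2ra and Tnfrsf4 had a UMI in 47 of the 70 control regulatory T cells (67.1%) and in 37 of the 77 knockdown cells (48.1%), and 1 cell in each library had none of them. Thinned to 800 UMIs per cell, which removes the difference in depth, the share with all 3 was 31.4% in control and 24.7% in knockdown. The same share was 6% and 5.48% of conventional CD4 T cells, 0.370% and 0% of CD8 T cells, and 0% of macrophage-type cells in both libraries (0 of 4176 and 0 of 3440 cells, of which the unthinned shares were 0.168% and 0.0872%). Foxp3 itself, detected in every member by the rule, had a UMI in 0.144% of macrophage-type control cells and 0.291% of knockdown ones, at medians of 7006 and 5186.5 UMIs per cell.

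Most members sat near the Foxp3 threshold. In control 36 cells had 1 Foxp3 UMI, 25 had 2, 6 had 3, 2 had 4 and 1 had 5. In knockdown 57 cells had 1 Foxp3 UMI, 11 had 2 and 9 had 3. Cells just inside, with 1 Foxp3 UMI, held Ikzf2 at 3058 CPM in control and 2268 CPM in knockdown, and cells with at least 2 held it at 2128 and 2749 CPM. Just outside, the T cells with 0 Foxp3 and 0 Cd8 UMIs (304 and 740 cells) held Ikzf2 at 653 and 661 CPM, Il2ra at 191 and 158 CPM and Tnfrsf4 at 344 and 215 CPM. The 5 control and 8 knockdown cells left out for a Cd8 UMI had Ikzf2 at 2331 and 821 CPM. The 9 and 6 cells left out for 4 or more C1q UMIs had the macrophage gene Lyz2 at 6416 and 5237 CPM, against 177 and 1298 CPM in the members with 1 to 3 C1q UMIs, where 77 of the 90 knockdown Lyz2 UMIs came from 1 cell, and 185 and 212 CPM in those with 0. A further 4 and 8 cells with at least 500 but under 800 UMIs lay below the depth limit, 2 and 11 had 3 or more UMIs of Hmga2 and Rhox5, and 5 and 6 had Foxp3 without a UMI of Cd3d, Cd3e, Cd3g or Trac.

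Markers of most other cells were low in the members, in part by selection, since the rule limits the C1q genes, Hmga2 and Rhox5, which are among the macrophage and tumour markers below. The 9 measured gamma-delta T markers and the 4 haemoglobin genes were at 0 in both libraries. The 15 macrophage and monocyte markers summed to 1264 CPM in control and 2162 CPM in knockdown, against 14074 and 9188 CPM in the near-empty droplets and 1151 and 2299 CPM in conventional CD4 T cells. The dendritic markers summed to 531 and 1278 CPM, and of these Xcr1, Clec9a, Itgax and Siglech were at 0 in both libraries. The tumour markers summed to 676 and 829 CPM, with the keratins Krt18 and Krt8 at 0 in both. Over all these lineages the median cell gave 0.286% of its UMIs in control and 0.333% in knockdown, and the highest cell gave 1.27% and 1.98%. A few cells held much of these sums. In knockdown 1 cell held 96 macrophage and monocyte marker UMIs, another held 69 dendritic marker UMIs, and 20 of the 26 natural killer marker UMIs came from 1 cell of 5130 UMIs. In control 46 of the 59 endothelial marker UMIs came from 1 cell of 7162 UMIs, 33 of them from Flt1. The 8 CD8 T markers were not low. They summed to 3468 and 3336 CPM, against 2230 and 1389 CPM in conventional CD4 T cells and 646 and 798 CPM in near-empty droplets. At least 5 of their UMIs were found in 45 control and 39 knockdown members. Gzmb alone stood at 2186 and 1499 CPM, while Gzmk was at 0 and Cd8a and Cd8b1 were at 0 by the rule.

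Compared with conventional CD4 T cells, the nearest other population, the regulatory T cells carried more RNA of their known receptors and effector molecules. Of 5134 genes with at least 20 UMIs over the 4 sums, 134 were at least 2-fold higher in both libraries (2.61%) and 111 at least 2-fold lower in both (2.16%). Ikzf2 was 2.78-fold higher in control (2.30 to 3.37) and 3.90-fold in knockdown (3.13 to 4.89), Il2ra 2.30-fold (1.71 to 3.12) and 4.32-fold (2.88 to 6.65), and Tnfrsf4 2.19-fold (1.74 to 2.78) and 2.43-fold (1.93 to 3.09). These 3 are the markers given for the cell type, so their direction is no independent support. Leaving cells with a UMI of Il2ra or Ikzf2 out of the conventional cells raises their ratios by construction.

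Of the 17 Treg identity genes measured, 7 were 2-fold higher in both libraries (2.61% of all genes were) and 1 was lower. Ctla4, the inhibitory receptor that competes with Cd28 for its ligands, stood at 1453 CPM in regulatory and 612 CPM in conventional cells of control, and at 981 and 438 CPM in knockdown. The ratios were 2.38 (1.88 to 3.02) and 2.24 (1.68 to 3.01), and the knockdown ratio was 0.09 on the log2 scale when cells were thinned to 800 UMIs. Izumo1r, which encodes folate receptor 4, was 2.38-fold and 2.45-fold higher. Lrrc32, whose product GARP holds latent transforming growth factor beta on the surface, was 3.00-fold (1.22 to 8.89) and 3.79-fold (1.33 to 13.2) higher. Itgae, the integrin chain that binds E-cadherin, was 3.00-fold (1.37 to 7.48) and 8.68-fold (2.61 to 45.3) higher, with 3 UMIs behind the knockdown conventional value. Nrp1, a semaphorin co-receptor, was the member that was lower, at 0.477 (0.229 to 0.970) and 0.374 (0.122 to 0.974) of the conventional level, with 65.8 and 41.4 CPM in regulatory T cells against 98.1 and 103 CPM in near-empty droplets. The median log2 ratio of the list was 0.72 in control and 1.16 in knockdown, against 0.07 and 0.03 over all genes.

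Some suppressive molecules also had higher levels. Of 15 measured, 5 were 2-fold higher in both libraries and 0 were lower (2.61% and 2.16% of all genes were), with medians of 0.72 and 1.38 on the log2 scale. Il10, the inhibitory cytokine, gave 44 UMIs in regulatory and 7 in conventional control cells, and 19 and 3 in knockdown, which are ratios of 4.19 (1.87 to 11.04) and 7.496 (2.21 to 39.55). Gzmb, the protease granzyme B, stood at 2186 against 1210 CPM in control and 1499 against 554 CPM in knockdown, 1.81-fold (1.52 to 2.15) and 2.70-fold (2.12 to 3.48) higher. Lag3, an inhibitory receptor for MHC class II, was 2.25-fold (1.12 to 4.88) and 2.71-fold (1.05 to 7.78) higher. Entpd1, the ectoenzyme CD39 that breaks down ATP, was 1.67-fold (1.02 to 2.80) and 3.23-fold (1.57 to 7.14) higher. Nt5e, which completes that pathway to adenosine, was not separated from the conventional level, at 1.21 (0.732 to 2.03) and 0.829 (0.387 to 1.73). Penk, the enkephalin precursor, was 3.34-fold (0.944 to 18.0) and 3.75-fold (1.44 to 11.5) higher on 15 and 19 UMIs. Areg, the growth factor amphiregulin, was on the lower side, at 0.371 (0.203 to 0.658) and 0.555 (0.279 to 1.05).

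Among effector and tumour Treg genes, 5 of 26 were 2-fold higher in both libraries and 2 lower, against 2.61% and 2.16% of all genes. Tnfrsf9, the costimulatory receptor 4-1BB, stood at 1163 against 507 CPM in control and 1229 against 473 CPM in knockdown. Maf, a transcription factor that supports Il10, was 2.06-fold (1.63 to 2.61) and 2.07-fold (1.66 to 2.60) higher. Klrg1, an inhibitory receptor for cadherins, was 2.49-fold (1.26 to 5.37) higher in control and 7.69-fold (2.67 to 30.3) in knockdown, where 4 UMIs were counted in conventional cells. Ccr2, a chemokine receptor, was 1.70-fold (1.17 to 2.52) and 2.29-fold (1.595 to 3.33) higher. Icos, a costimulatory receptor of the Cd28 family, was 1.76-fold (1.41 to 2.21) and 1.63-fold (1.30 to 2.03) higher, and Tnfrsf18, the receptor GITR, 1.55-fold (1.22 to 1.98) and 1.84-fold (1.36 to 2.51). Cxcr6, the receptor for the chemokine Cxcl16, and Pdcd1, the inhibitory receptor PD-1, were the lower members. Cxcr6 stood at 0.291 (0.154 to 0.526) and 0.132 (0.0407 to 0.330) of the conventional level. Pdcd1 stood at 0.421 and 0.410, but its direction turned with cells thinned to 800 UMIs in control (0.61 on the log2 scale) and with at least 2 Foxp3 UMIs in knockdown (0.18).

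Genes outside the lists were named by the end of the interval nearest 1. After the genes above, Chchd10, a mitochondrial protein, was 5.47-fold (2.83 to 11.8) and 3.72-fold (1.54 to 10.3) higher in regulatory T cells. Sv2c, a synaptic vesicle glycoprotein, was 3.80-fold (1.93 to 8.35) and 2.99-fold (1.67 to 5.60) higher. Msrb3, a methionine sulfoxide reductase, was 10.7-fold (1.66 to 448) and 6.71-fold (1.94 to 35.7) higher on 16 and 17 UMIs. Zfp36l1, an RNA-binding protein that promotes mRNA decay, was 2.17-fold and 2.26-fold higher, Ap3b1, a subunit of a vesicle adaptor complex, 2.35-fold and 2.42-fold, and Bmp2k, a protein kinase, 2.77-fold and 3.16-fold. Ifi27l2a, an interferon-induced gene, stood at 6250 against 3855 CPM in control and 4289 against 2340 CPM in knockdown. The interferon-induced GTPases Iigp1 (2.28-fold and 2.14-fold) and Gbp5 (3.84-fold and 2.96-fold) were the 2 of 34 interferon response genes past 2-fold in both libraries. Of all genes 2.61% were past it on the higher side.

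On the lower side stood several genes for ligands, cytokines and receptor chains, chosen here by rank or after their values were seen. Tnfsf8, the ligand of CD30, gave 0 UMIs in regulatory and 17 in conventional cells of control, and 2 and 52 in knockdown. Against the limit of 3 counts that a count of 0 allows, taken over the sum of a library, it was at least 8.49-fold lower in control. Il18rap, the accessory chain of the interleukin-18 receptor, was at 0 against 16 and 15 UMIs, which is at least 7.99-fold and 4.22-fold lower. Tnfsf11, the ligand RANKL, was at 0 against 14 and 12 UMIs, at least 6.99-fold and 3.38-fold lower. Cd40lg, by which helper cells license antigen-presenting cells, was at 0 against 6 and 14 UMIs, at least 3.00-fold and 3.94-fold lower. Ifng, the cytokine interferon gamma, gave 1 against 15 and 2 against 18 UMIs, ratios of 0.0445 (0.00106 to 0.289) and 0.132 (0.0148 to 0.549). Tnf was at 0 in knockdown regulatory T cells against 39 UMIs, at least 10.98-fold lower, but gave 5 and 5 UMIs in control. Of 14 T helper lineage genes measured, Ifng and Cd40lg were 2-fold lower in both libraries and 0 were higher, against 2.16% and 2.61% of all genes. The list medians of −0.26 and −0.07 on the log2 scale stood against 0.07 and 0.03 over all genes.

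Some genes of resting and memory T cells were lower too. Bcl2, which protects from cell death, gave 6 UMIs against 68 in control and 5 against 21 in knockdown, ratios of 0.0589 (0.0209 to 0.135) and 0.282 (0.0830 to 0.768). Tcf7, a transcription factor of stem-like T cells, gave 2 against 18 and 1 against 9 UMIs. Bach2, a repressor of effector genes, stood at 0.143 (0.0484 to 0.352) and 0.178 (0.0338 to 0.599) of the conventional level. These were the 3 of 12 resting and central Treg genes past 2-fold in both libraries, against 2.16% of all genes on the lower side. Il7r, the interleukin-7 receptor, was near the conventional level, at 0.912 (0.646 to 1.29) and 1.36 (0.929 to 1.98). Outside the lists, Aff3, a nuclear protein, gave 4 against 20 and 2 against 32 UMIs, and the sialyltransferase St6gal1 4 against 17 and 1 against 25. The phosphodiesterases Pde3b and Pde7a stood at 0.128 and 0.161 and at 0.237 and 0.111 of the conventional level. Btg2, an inhibitor of proliferation, stood at 0.202 and 0.217, and Emb, the adhesion protein embigin, at 0.277 and 0.263. Arap2, a GTPase-activating protein, stood at 0.263 and 0.292. The integrin chains Itgb1 (0.412 and 0.395) and Itgal (0.267 and 0.479) were lower in both libraries.

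**Figure D2:**
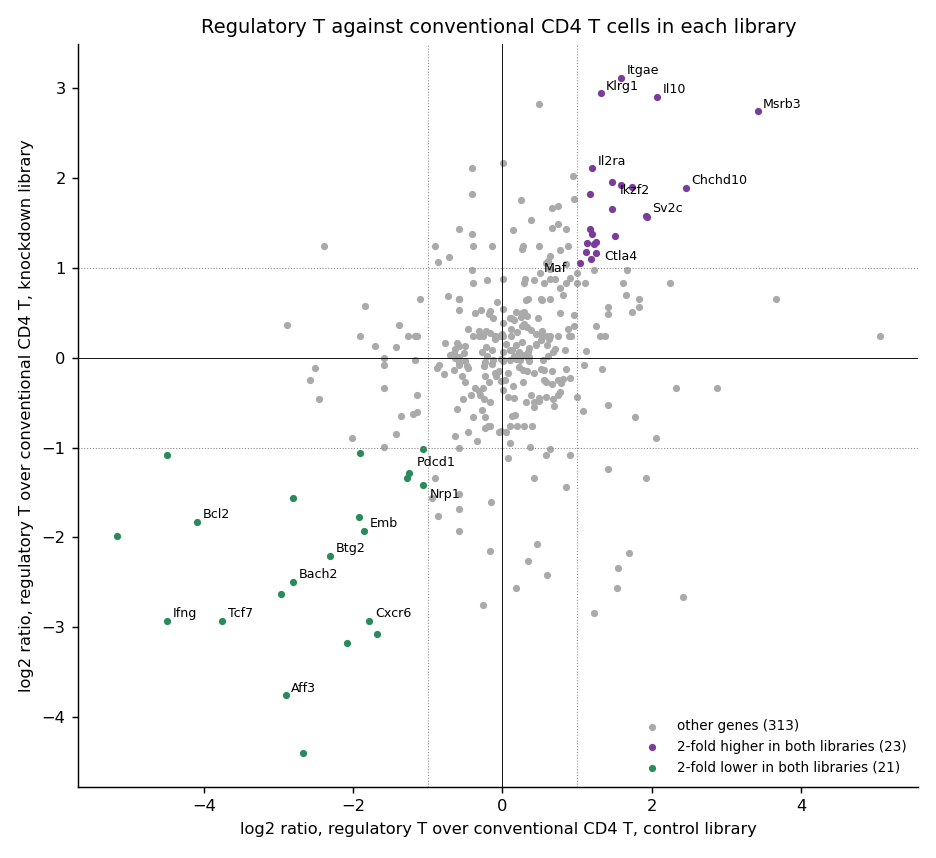
Log2 ratio of regulatory over conventional CD4 T cells in the control library (x) and the knockdown library (y) for 357 genes of the gene lists or named by rank, with 12 more not drawn because a sum held 0 UMIs. Dotted lines mark 2-fold; 23 drawn genes were past it on the higher side in both libraries and 21 on the lower side, with Il10, Itgae and Klrg1 at the upper right and Ifng, Tcf7 and Bcl2 at the lower left.

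Regulatory T cells, like conventional CD4 T cells, made up a smaller share of T cells in the knockdown library. They were 70 of 649 T cells in control, or 10.8% (8.51 to 13.4), and 77 of 1655 in knockdown, or 4.65% (3.69 to 5.78), a ratio of 0.431 (0.308 to 0.605). Thinned to 800 UMIs before the rule was applied, the shares were 5.88% and 2.96%, a ratio of 0.503 (0.312 to 0.817). The number of other T cells moves with this ratio: T cells were 4.96% of kept cells in control and 9.48% in knockdown, and CD8 T cells 2.06% and 4.76%. The number of CD8 T cells per regulatory T cell was 3.86 in control and 10.8 in knockdown. Kept barcodes, the denominator of every share of kept cells, outnumbered the 6000 cells loaded per library and cannot all be single intact cells. Of all kept cells, 0.535% (0.417 to 0.675) of control and 0.441% (0.348 to 0.551) of knockdown were regulatory T cells. That is a ratio of 0.826 (0.589 to 1.16); after thinning the shares were 0.252% and 0.246%, with a ratio of 0.978 (0.607 to 1.59). Among cells with a Cd4 or a Foxp3 UMI they were 58.3% (70 of 120) and 51.3% (77 of 150), a ratio of 0.880 (0.628 to 1.23). The share of kept cells depended on the thresholds. With at least 2000 UMIs per cell it had a ratio of 0.396 (0.227 to 0.671), and the share of T cells a ratio of 0.257 (0.148 to 0.435), on 47 and 22 cells. With at least 2 Foxp3 UMIs the ratios were 0.441 and 0.231, on 34 and 20 cells. The part of depth in these values was not tested. All of these compare 1 library with 1 library.

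**Figure D3:**
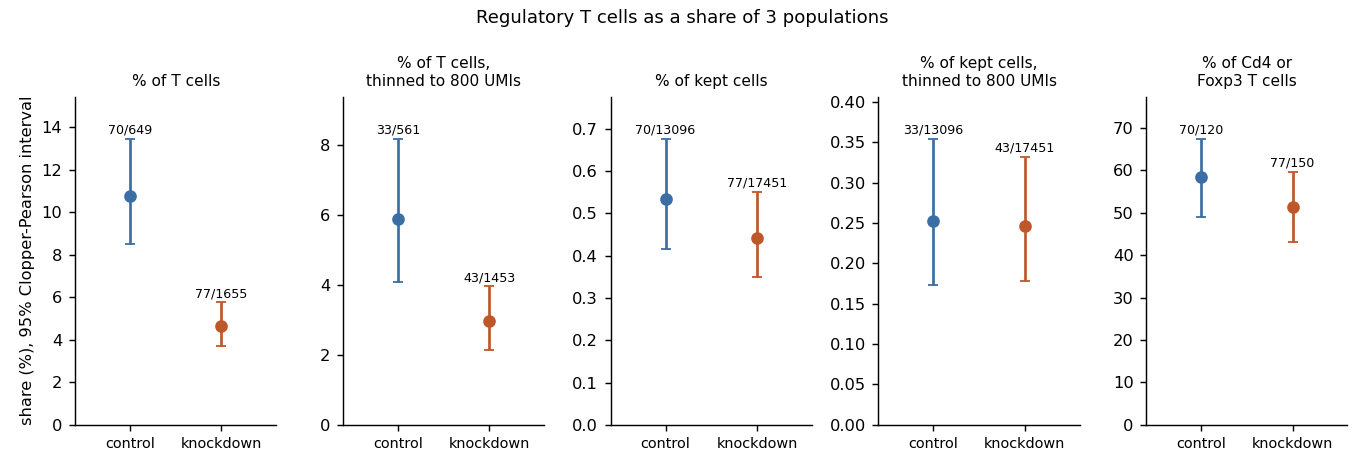
Regulatory T cells as a share (%) of T cells, of kept cells and of Cd4 or Foxp3 cells in the control and knockdown libraries. Shares of T cells and of kept cells are drawn before and after thinning to 800 UMIs per cell. The share of Cd4 or Foxp3 cells is drawn without thinning only. Points are shares of 1 library with 95% Clopper-Pearson intervals and the cell numbers above them; the intervals separate for T cells (10.8% and 4.65%) and overlap for kept cells (0.535% and 0.441%).

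Between the libraries, the 3 markers of regulatory T cells had ratios whose intervals included 1, and the wider identity list lay lower in knockdown. Of 3284 genes with at least 20 UMIs over both libraries, 391 were at least 1.5-fold higher in knockdown (11.9%) and 601 at least 1.5-fold lower (18.3%), and the median log2 ratio was −0.03. In conventional CD4 T cells 16.4% and 16.2% of 2872 genes were past the same limits. The knockdown over control ratio was 0.963 (0.841 to 1.10) for Ikzf2, 0.876 (0.690 to 1.11) for Il2ra and 1.11 (0.930 to 1.32) for Tnfrsf4. Izumo1r stood at 220 and 214 CPM, Itgae at 158 and 152 CPM and Lrrc32 at 119 and 111 CPM. Foxp3 CPM, 514 and 732, follow from the rule, since each cell had to hold 1 UMI whatever its depth. In all, 0 of 18 identity genes were 1.5-fold higher in knockdown and 5 were lower, against 11.9% and 18.3% of all genes. Foxp3 is 1 of the 18, so the count, the median and the summed ratio of the list rest in part on values set by the rule. The list had a median log2 ratio of −0.40 and a ratio of its summed CPM of 0.873 (0.816 to 0.933), while with at least 2 Foxp3 UMIs its median was 0.0051. A lower sum was not particular to regulatory T cells. The summed CPM of the list went from 5150 in control to 3693 in knockdown in conventional CD4 T cells, and from 2202 to 1899 in CD8 T cells.

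Ctla4 was at the edge of those lower. It stood at 1453 CPM (1301 to 1618) in control and 981 CPM (826 to 1156) in knockdown, a ratio of 0.675 (0.551 to 0.824), with UMIs in 55 of 70 and 40 of 77 cells. Thinned to 800 UMIs, 54.3% and 31.2% of cells held a Ctla4 UMI. With at least 2 Foxp3 UMIs the direction turned, to 0.29 on the log2 scale. In conventional CD4 T cells the Ctla4 ratio was 0.715. Tnfrsf18 stood at 1010 and 774 CPM, a ratio of 0.766 (0.606 to 0.964). Rgs1, a regulator of G protein signalling, stood at 724 and 477 CPM, a ratio of 0.658 (0.489 to 0.877). Nt5e gave 47 and 14 UMIs in 22 and 8 cells, a ratio of 0.469 (0.238 to 0.866), and Ikzf4, a relative of Ikzf2, 24 and 9 UMIs. The other identity genes past 1.5-fold were Swap70, a signalling adaptor, with 21 and 8 UMIs, and Nrp1 with 15 and 6. In conventional CD4 T cells Tnfrsf18 stood at 651 CPM in control and 420 CPM in knockdown, and Rgs1 at 566 and 443 CPM. Nt5e stood there at 171 and 117 CPM and Ikzf4 at 59.2 and 58.4 CPM.

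Of 11 costimulatory receptors, 0 were past 1.5-fold between the libraries in either direction, against 11.9% of all genes on the higher side and 18.3% on the lower. Icos stood at 1286 and 1347 CPM, a ratio of 1.05 (0.869 to 1.26), and Tnfrsf9 at 1163 and 1229 CPM, a ratio of 1.06 (0.869 to 1.28). The adhesion receptor Cd2, at 1049 and 801 CPM, had the lowest ratio of the list (0.764, 0.606 to 0.957), and Tnfrsf13b, a receptor for BAFF, the highest (1.203, 0.537 to 2.63) on 17 and 13 UMIs. Of 14 suppressive molecules, Penk, Fgl2 and Pdcd1lg2 were past 1.5-fold on the higher side and Nt5e and Itgb8 on the lower (11.9% and 18.3% of all genes were), with a median log2 ratio of −0.23. Gzmb stood at 2186 CPM (1998 to 2387) in control and 1499 CPM (1306 to 1712) in knockdown, a ratio of 0.686 (0.582 to 0.806), and 56 of the 498 control UMIs came from 1 cell. It was lower in conventional CD4 T cells as well (0.458) and in CD8 T cells (0.766). Il10 stood at 193 and 131 CPM, a ratio of 0.679 (0.375 to 1.19), and Lag3 at 162 and 111 CPM. Itgb8, the integrin chain that activates transforming growth factor beta, stood at 281 and 159 CPM, a ratio of 0.566 (0.335 to 0.923), which turned to 0.29 on the log2 scale with at least 2 Foxp3 UMIs. Fgl2, a secreted inhibitor, gave 27 and 30 UMIs in 17 and 23 cells, a ratio of 1.75 (1.004 to 3.06).

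Of 25 effector and tumour Treg genes, 5 were past 1.5-fold on the higher side and 5 on the lower, against 11.9% and 18.3% of all genes. The calcium-binding proteins S100a4 and S100a6 were the high ones by level. S100a4 stood at 1466 CPM (1313 to 1632) in control and 3046 CPM (2768 to 3344) in knockdown, a ratio of 2.08 (1.80 to 2.40), with UMIs in 61 of 70 and 75 of 77 cells. S100a6 stood at 2252 and 4082 CPM, a ratio of 1.81 (1.61 to 2.04). Free RNA moves with both genes: in near-empty droplets S100a4 stood at 2497 and 5079 CPM and S100a6 at 8399 and 10347 CPM. With free RNA subtracted the log2 ratio of S100a4 was 0.80 and that of S100a6 0.37. In conventional CD4 T cells the ratios were 1.37 and 1.599. Lgals1, a galectin, was near the same level, at 2800 and 3046 CPM. Maf had a ratio of 1.19 (0.996 to 1.42) and Ccr2 of 1.40 (1.05 to 1.88), the latter with UMIs in 41 and 47 cells and turned to −0.21 on the log2 scale with at least 2000 UMIs per cell. Klrg1 stood at 180 CPM in both. On the lower side, Bhlhe40, a stress-response transcription factor, gave 35 and 10 UMIs in 19 and 9 cells, a ratio of 0.450 (0.199 to 0.928). Ccr8, a chemokine receptor of tumour regulatory T cells, was below the limit of 20 UMIs with 12 and 2, in 10 and 2 cells.

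Chemokine, homing and T helper genes had median log2 ratios above that of all genes, 0.42 over 14 chemokine and homing genes and 0.18 over 9 T helper genes. Past 1.5-fold on the higher side were 4 and 3 of them, and 1 and 1 on the lower, against 11.9% and 18.3% of all genes. Ccl5, a chemokine of effector T cells, stood at 698 and 1333 CPM, a ratio of 1.91 (1.54 to 2.37). In knockdown 51 of the 193 Ccl5 UMIs came from 1 cell; without the top cell of each library the ratio was 1.62, and with cells of at most 5000 UMIs the log2 ratio was 0.37. In CD8 T cells, where Ccl5 stood at 2208 and 4536 CPM, the ratio was 2.05, and in conventional CD4 T cells it was 0.953. Stat4, which relays interleukin-12 signals, gave 21 and 42 UMIs in 15 and 18 cells, a ratio of 3.15 (1.82 to 5.59), and 2.80 without the top cell. The Stat4 ratio was 1.92 (1.28 to 2.94) in conventional CD4 T cells and 1.05 (0.9265 to 1.197) in CD8 T cells. Itga4, an integrin chain, had a ratio of 3.32, but 14 of the 19 knockdown UMIs came from 1 cell, and it was 1.31 without the top cells. Hopx, a homeodomain protein, gave 66 and 27 UMIs in 39 and 20 cells, a ratio of 0.644 (0.395 to 1.02). Itgb7, a homing integrin chain, had a ratio of 1.36 (0.936 to 1.97), and Rora, a nuclear receptor, of 0.903 (0.650 to 1.25).

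Resting, inhibitory and tissue repair genes had median log2 ratios of 0.09, −0.14 and 0.09, against −0.03 over all genes. The counts below stand against 11.9% of all genes past 1.5-fold on the higher side and 18.3% on the lower. Of 7 resting and central genes, 0 were past 1.5-fold on the higher side and 2 on the lower, Foxo1 and Lef1, with a median log2 ratio of 0.09. Il7r stood at 360 and 435 CPM and Satb1, a chromatin organiser, at 320 and 359 CPM. Klf2, which drives recirculation through lymph nodes, had a ratio of 1.38 (0.729 to 2.58), and Lef1, a partner of Tcf7, of 0.629 (0.294 to 1.27). Of 9 inhibitory receptors and regulators, 1 was higher and 1 lower, and the summed CPM of the list had a ratio of 0.816 (0.713 to 0.934). Tox, a transcription factor of chronic stimulation, stood at 342 and 470 CPM, a ratio of 1.37 (0.976 to 1.92), Vsir, the checkpoint molecule VISTA, had a ratio of 1.75 (0.878 to 3.505), and Pdcd1 gave 24 and 9 UMIs. Of 10 tissue repair genes, 2 were higher and 1 lower. Penk gave 15 and 19 UMIs in 8 and 7 cells, 7 of the knockdown ones in 1 cell, and Nfil3, a transcription factor, 38 and 15 UMIs, a ratio of 0.621 (0.317 to 1.16).

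By rank, Camk1d, Fkbp5, Stat4 and Frmd5 were among the 12 genes highest in knockdown, and Alcam among the 12 lowest. Camk1d, a calcium-dependent protein kinase, stood at 650 and 1291 CPM, a ratio of 1.99 (1.59 to 2.48), with UMIs in 55 and 66 cells. Its log2 ratio lay between 0.86 and 1.84 in the 15 alternative settings, and the ratio was 1.37 in conventional CD4 T and 1.49 in CD8 T cells. In near-empty droplets Camk1d stood at 1181 and 1088 CPM. Fkbp5, a co-chaperone induced by glucocorticoids, gave 7 UMIs in 5 control cells and 20 in 18 knockdown cells, a ratio of 4.496 (1.83 to 12.6). Lclat1, an enzyme of cardiolipin metabolism, gave 9 and 22 UMIs in 8 and 19 cells, and Crbn, a ubiquitin ligase receptor, 10 and 22 UMIs in 10 and 14 cells. Wdr89, a protein of WD repeats, gave 6 and 17 UMIs in 5 and 15 cells, and Tgoln1, a protein of the trans-Golgi network, 11 and 24 in 11 and 16 cells. Frmd5, which encodes a FERM domain protein, stood at 378 and 760 CPM, a ratio of 2.01 (1.504 to 2.70), in 19 and 29 cells. Frmd5 was lower in knockdown in conventional CD4 T cells (0.451) and CD8 T cells (0.326), and among regulatory T cells with a Cd4 UMI its log2 ratio turned to −1.72. Alcam, an adhesion molecule that binds Cd6, stood at 812 CPM (699 to 938) in control and 214 CPM (146 to 304) in knockdown, a ratio of 0.264 (0.174 to 0.387). Alcam UMIs were found in 36 of 70 and 16 of 77 cells, at equal depth in 30.0% and 11.7%, and its ratio was 0.280 without the top cells and 0.724 in conventional CD4 T cells.

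The other ranked genes rested on few cells. Il1b gave 2 and 20 UMIs, 12 of them in 1 knockdown cell that also held 96 macrophage and monocyte marker UMIs. Its ratio of 15.7 (3.82 to 138.8) was 12.6 without the top cells, on 4 knockdown cells in all, and 10.4 (3.81 to 39.8) in conventional CD4 T cells. Cst3, a protease inhibitor abundant in myeloid cells, had a ratio of 4.11, with 75 of 120 knockdown UMIs in 1 cell that held 0 Ikzf2 and 8 Ccr7 UMIs, and 1.69 without the top cells. Ifitm1 gave 8 and 18 UMIs, of which 7 and 10 came from 1 cell each, and its ratio went from 3.54 to 12.6 without them, on 1 control UMI. On the lower side, Igfbp3 had 82 of its 84 control UMIs and Flt1 its 33 in the same cell, which carried 46 endothelial and 34 tumour marker UMIs. Flt1 is itself an endothelial marker, so its 33 UMIs are among those 46. The macrophage elastase Mmp12 had its 50 control UMIs in 1 cell, which held 41 macrophage and monocyte marker UMIs. Tcf4 (48 of 64), Ptprm (26 of 27), Polk (29 of 34), Hdac9 (22 of 22), Adgrl2 (24 of 26) and Apbb2 (23 of 26) likewise had most of their control UMIs in 1 cell. Whether these cells were droplets with more than 1 cell was not tested.

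**Figure D4:**
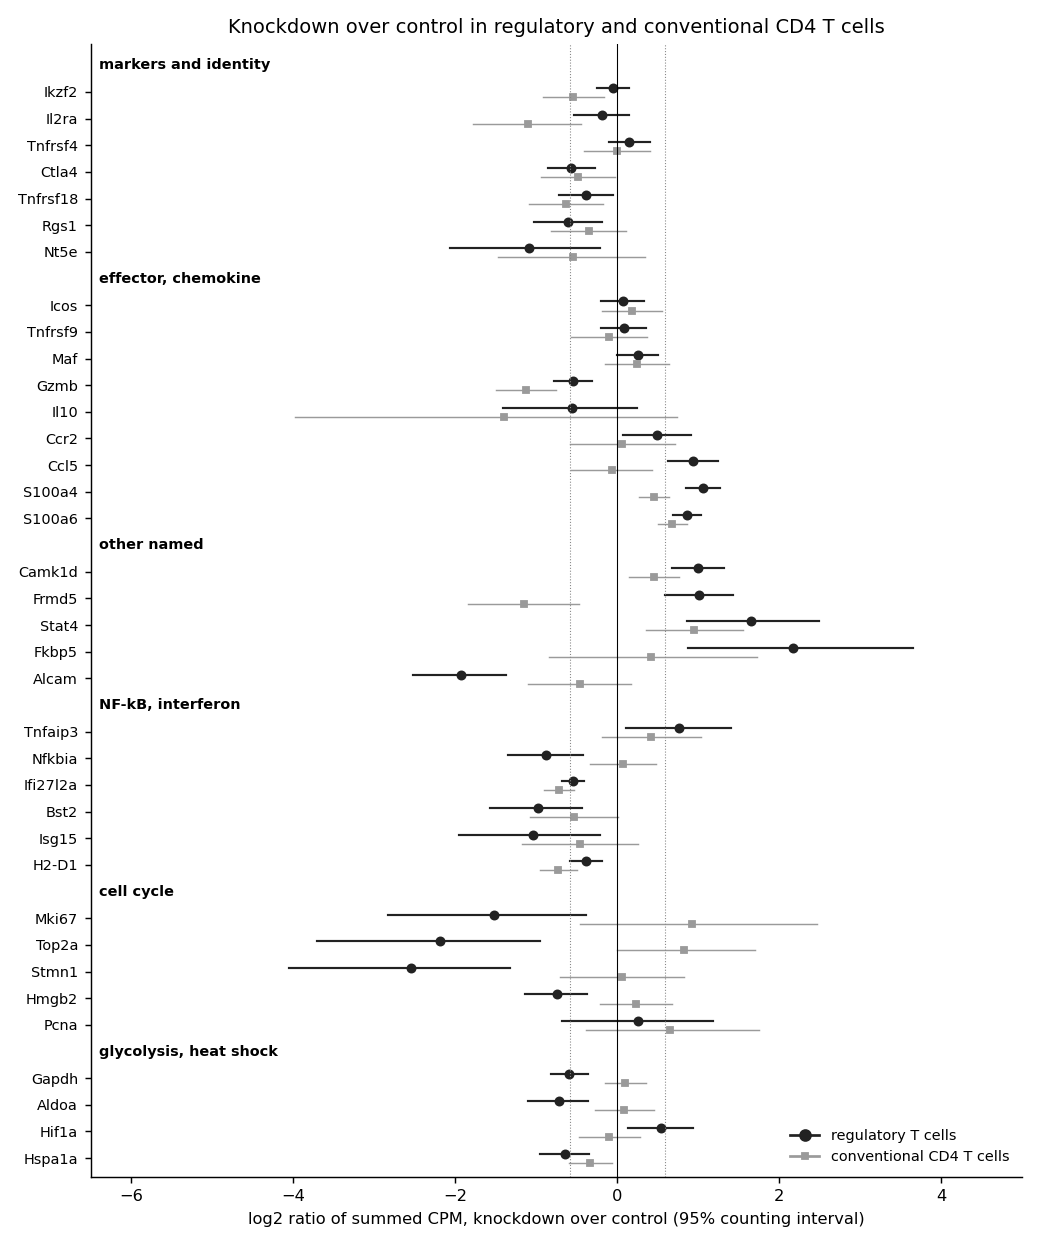
Log2 ratio of summed CPM, knockdown over control, for named genes in regulatory T cells (black circles) and conventional CD4 T cells (grey squares), with 95% counting intervals and dotted lines at 1.5-fold. Ikzf2, Il2ra, Tnfrsf4, Icos and Tnfrsf9 sit near 0, S100a4 (2.08-fold) and Camk1d (1.99-fold) to the right, and Alcam (0.264) and the cell cycle genes Top2a (0.220) and Stmn1 (0.172) to the left.

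Cell cycle genes were lower in the summed knockdown cells. Of 17 measured, 0 were past 1.5-fold on the higher side and 11 on the lower, against 11.9% and 18.3% of all genes. The median log2 ratio was −0.79 against −0.03 over all genes. Top2a, which untangles DNA in mitosis, gave 43 UMIs in 16 control cells and 6 in 6 knockdown cells, a ratio of 0.220 (0.0764 to 0.518). Stmn1, which destabilises microtubules, gave 55 and 6 UMIs in 12 and 5 cells. Mki67, the proliferation marker, gave 36 and 8 UMIs in 9 and 6 cells, and Mcm3, a subunit of the replicative helicase, 19 and 1. Hist1h2ap, a histone gene made during replication and 1 of many near-identical copies, gave 28 and 2 UMIs in 12 and 2 cells. Hmgb2, a chromatin protein, stood at 917 and 546 CPM, a ratio of 0.595 (0.453 to 0.774), and H2afz, a histone variant, at 935 and 739 CPM. Pcna, the sliding clamp of DNA replication, gave 25 and 19 UMIs in 11 and 17 cells, a ratio of 1.196 (0.623 to 2.26).

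Much of the control sum lay in the deepest cells. The 4 deepest control cells, of 12449 to 15763 UMIs, held 146, 139, 104 and 169 cell cycle UMIs. Cells with at least 10 cell cycle UMIs were 13 in control, with 42.8% of the summed UMIs, and 5 in knockdown, with 14.7%. With cells of at most 5000 UMIs only, the list median was −0.46, Mki67 turned to 0.33, and with CPM averaged over cells the list median was −0.20. At equal depth, 28.6% of control and 35.1% of knockdown cells held at least 3 cell cycle UMIs, and a Mki67 UMI was found in 5.71% and 2.60%. In conventional CD4 T cells the ratios of Top2a (1.77) and Mki67 (1.90) lay on the other side of 1; that difference was not tested.

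Several glycolytic enzymes were lower in the knockdown sum. Of 17 glycolysis and hypoxia genes, 1 was past 1.5-fold on the higher side and 7 on the lower, against 11.9% and 18.3% of all genes, with a median of −0.39. Gapdh stood at 2375 CPM (2179 to 2583) and 1575 CPM (1377 to 1793), a ratio of 0.663 (0.566 to 0.776), and at 2406 and 2482 CPM in near-empty droplets. Aldoa stood at 992 and 601 CPM, a ratio of 0.606 (0.467 to 0.779). Tpi1 (0.534) and Pgam1 (0.525) went the same way, as did Eno1 (0.502), which turned to 0.32 on the log2 scale at equal depth. Bnip3, a mitophagy receptor induced by hypoxia, gave 24 and 5 UMIs. Hif1a, the transcription factor of the hypoxia response, was on the other side, at 496 and 718 CPM, a ratio of 1.45 (1.10 to 1.91), with UMIs in 45 and 53 cells. Hk1, a hexokinase gene, gave 9 and 13 UMIs, and Mif, a cytokine gene under hypoxic control, stood at 939 and 960.0 CPM. With cells of at most 5000 UMIs the list median was −0.18, and in conventional CD4 T cells Gapdh (1.07) and Aldoa (1.06) had ratios near 1. Of 22 oxidative phosphorylation genes, 1 was higher and 3 lower past 1.5-fold, with a median of 0.00. Cox4i1 stood at 755 and 746 CPM and Cox6c at 667 and 1022 CPM, both subunits of cytochrome oxidase, and Uqcrc2, a subunit of complex III, gave 15 and 5 UMIs.

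Stress and NF-kB genes were mixed. Of 16 dissociation and heat shock genes, 0 were higher and 4 lower past 1.5-fold (11.9% and 18.3% of all genes were), with a median of −0.11. The chaperone Hspa1a stood at 1405 and 898 CPM, a ratio of 0.639 (0.517 to 0.786), and Hsph1 at 698 and 414 CPM, a ratio of 0.594 (0.434 to 0.804), while Hsp90aa1 (0.944) and Hspa8 (0.903) were near 1. Dusp1, an immediate early phosphatase, had a ratio of 1.497 (1.03 to 2.17). Atf3, a stress-induced transcription factor, gave 16 and 5 UMIs, with 12 of the control ones in 1 cell. In the NF-kB list, 2 of 13 were higher and 2 lower. Nfkbia, the inhibitor that holds NF-kB in the cytoplasm, stood at 698 and 380 CPM, a ratio of 0.544 (0.393 to 0.744), in 42 and 24 cells, and at 0.048 on the log2 scale with at least 2 Foxp3 UMIs. Tnfaip3, which ends NF-kB signalling by editing ubiquitin chains, stood at 180 and 304 CPM, a ratio of 1.69 (1.08 to 2.65), and Nfkb1 at 478 and 470 CPM. Nfkb2, the subunit of the non-canonical arm, gave 13 and 17 UMIs. Ptpn22, a phosphatase that dampens T cell receptor signals, stood at 290 and 483 CPM, a ratio of 1.67 (1.18 to 2.37), and was among 3 of 15 T cell receptor signalling genes past 1.5-fold on the higher side against 1 on the lower. Nr4a3, an early response gene, gave 11 and 14 UMIs, and Nfatc1, a calcium-dependent transcription factor, 26 and 11. In the interleukin-2 receptor list, Jak1 had a ratio of 1.63 (1.11 to 2.41) and Bcl2l1, a survival factor, of 1.74 (1.02 to 2.98), while Il2rb (0.834) and Pim1 (1.12) were within 1.5-fold and Socs2, a feedback inhibitor, gave 24 and 9 UMIs.

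Among 26 interferon response genes, 2 were past 1.5-fold on the higher side and 6 on the lower, against 11.9% and 18.3% of all genes, and the median log2 ratio of 0.10 lay above that of all genes. Ifi27l2a stood at 6250 CPM (5930 to 6584) in control and 4289 CPM (3958 to 4640) in knockdown, a ratio of 0.686 (0.623 to 0.755), close to that of conventional CD4 T cells (0.607) and CD8 T cells (0.711). Bst2, the virion tether tetherin, stood at 492 and 249 CPM, a ratio of 0.506 (0.337 to 0.742), and at 692 and 519 CPM in near-empty droplets. Isg15, a ubiquitin-like modifier, had a ratio of 0.484, with 17 of 52 control UMIs in 1 cell, and 0.629 without the top cells. Ly6a, a surface protein induced by interferon, was higher, at 1383 and 1740 CPM, a ratio of 1.26 (1.06 to 1.49). Gbp2, a guanylate-binding protein, had a ratio of 1.62 (1.006 to 2.59). Of 18 MHC class I and peptide loading genes, 3 were higher and 0 lower past 1.5-fold. H2-D1 stood at 2792 and 2134 CPM, a ratio of 0.764 (0.665 to 0.877), H2-K1 at 3595 and 3087 CPM, and B2m, the shared light chain, at 4398 and 5028 CPM. Psmb9, an immunoproteasome subunit, stood at 439 and 297 CPM, a ratio of 0.677 (0.462 to 0.977), and Erap1, which trims peptides, gave 9 and 11 UMIs. The class I heavy chain genes are alike in sequence, and the treatment of reads that match several of them was not stated in the sources used here.

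Few genes of the SREBP pathway that MBTPS1 activates could be compared in these cells. Of the 34 SREBP and sterol synthesis genes 5 reached 20 UMIs in the regulatory T cells, as did 3284 of all 32285 genes. Their median log2 ratio was 0.00, with 1 past 1.5-fold on the higher side and 2 on the lower (11.9% and 18.3% of all genes were). Against conventional CD4 T cells, Idi1 was 2-fold higher in both libraries among 14 genes and 0 were lower (2.61% and 2.16% of all genes were). Srebf2 gave 21 and 15 UMIs, Acly, which makes cytosolic acetyl-CoA, 19 and 5, Ebp, a sterol isomerase, 18 and 7, and Idi1, an isomerase of the sterol pathway, 10 and 13. Elovl6, a fatty acid elongase, gave 16 and 10.

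The regulatory T cells also varied among themselves. At 800 UMIs per cell, a UMI of Ikzf2 was found in 82.9% of control and 74.0% of knockdown cells, of Tnfrsf4 in 70.0% and 61.0%, of Icos in 61.4% and 70.1%, of Maf in 55.7% and 75.3%, and of Gzmb in 67.1% and 59.7%. In conventional CD4 T cells the Gzmb shares were 30.0% and 21.9% and the Maf shares 38.0% and 38.4%. Less frequent genes were Ccr2 (34.3% and 48.1%), Klrg1 (18.6% and 16.9%), Itgae (15.7% and 10.4%) and Il10 (12.9% and 6.49%).

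**Figure D5:**
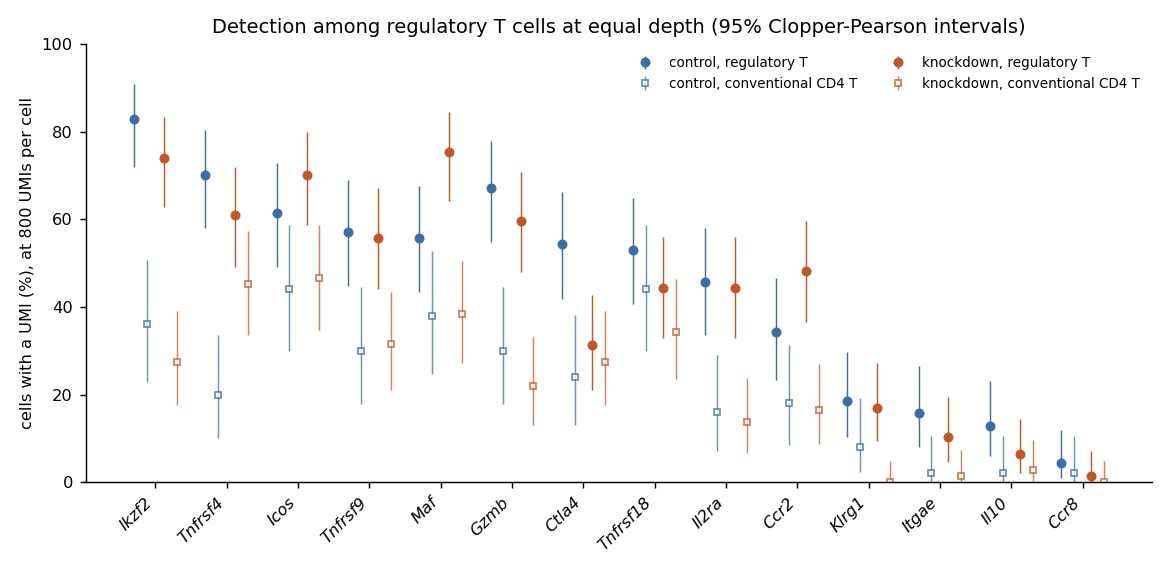
Share of cells with a UMI (%) of 14 genes after each cell was thinned to 800 UMIs, in regulatory T cells (filled circles) and conventional CD4 T cells (open squares) of the control and knockdown libraries. Bars are 95% Clopper-Pearson intervals; Ikzf2 was found in 82.9% and 74.0% of regulatory T cells against 36.0% and 27.4% of conventional ones.

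Cells with a Klrg1 UMI, 20 in control and 19 in knockdown, were compared with the other 50 and 58, as a description of how these genes go together. Ccr2 was 2.86-fold higher in them in control (1.90 to 4.32) and 1.67-fold in knockdown (1.03 to 2.63). Tnfrsf18 was 1.83-fold (1.40 to 2.39) and 1.98-fold (1.31 to 2.95) higher, S100a4 1.98-fold (1.59 to 2.47) and 1.51-fold (1.22 to 1.85), and Ifi27l2a 1.56-fold (1.41 to 1.74) and 1.91-fold (1.62 to 2.26). Maf was 1.29-fold and 1.38-fold higher, and Gzmb 1.502-fold (1.25 to 1.80) and 1.24-fold (0.898 to 1.69). Ikzf2 lay on the other side, at 0.865 (0.716 to 1.04) and 0.638 (0.467 to 0.857). The median depth of Klrg1 cells was 2874 UMIs against 2143 in control and 1519 against 1588 in knockdown.

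Cells with at least 3 cell cycle UMIs, 49 and 58, held less Ifi27l2a, at 0.517 (0.461 to 0.580) and 0.599 (0.502 to 0.718). This split favours deep cells, whose medians were 2740 against 2046 UMIs in control and 1732 against 1358 in knockdown.

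Cells without an Ikzf2 UMI were 7 in control and 13 in knockdown. The libraries did not give the same picture, and the difference between them was not tested. In knockdown, cells with Ikzf2 held 3.32-fold more Gzmb (1.90 to 6.34) than those without, while in control they held less (0.510, 0.368 to 0.727). Ctla4 was 2.79-fold higher in them in knockdown (1.47 to 5.96) and at 0.854 (0.518 to 1.51) in control, and Tnfrsf4 1.61-fold higher (1.07 to 2.53) and at 0.682 in control, with an interval that included 1. Tnfrsf18 was 2.42-fold higher (1.23 to 5.44) in knockdown and 1.203-fold in control, where the interval also included 1. S100a4 was at 1.08 (0.840 to 1.42) in knockdown and 0.371 (0.261 to 0.542) in control. Cells without Ikzf2 were shallower, with medians of 1384 against 2406 UMIs in control and 1250 against 1682 in knockdown, and in knockdown they included the cell with 75 Cst3 UMIs and that with 20 natural killer marker UMIs. In control, the 10 cells with a Ccr8 UMI held more Il2ra (1.496-fold, 1.09 to 2.03) and less Ccl5 (0.303, 0.158 to 0.535), Ccr2 (0.454, 0.226 to 0.832) and Icos (0.570, 0.401 to 0.792) than the other 60, at medians of 3018 and 2258 UMIs.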

How the data were processed

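Single-cell 3′ libraries of MC38 tumours, 1 control and 1 knockdown, were deposited by the authors as raw UMI counts per gene and barcode, made with Cell Ranger 4 per the file headers. Which assembly and gene models were used was not given in the sources used here. All barcodes were in the matrices. The rule for regulatory T cells was applied to the counts, the class sums were scaled to CPM, and intervals came from exact Poisson and binomial distributions (Python 3.11.15, numpy 2.4.6, scipy 1.17.1, pandas 2.3.3). The code was tested on sums simulated as Poisson counts. Those sums hold no clumping of UMIs in single cells, so the test cannot show how the intervals hold where 1 cell gives most UMIs. No doublet caller was run; the limits on C1q, Hmga2 and Rhox5 leave out some mixed droplets, and members with many UMIs of another lineage remain. Free RNA was estimated as the ratio of macrophage and tumour marker CPM in a class to that in barcodes of at most 100 UMIs. Ratios used genes with at least 20 UMIs over the sums compared, and counts use 1.5-fold between libraries and 2-fold in both libraries between classes. From each gene list the text names the 2 highest by CPM and those of highest and lowest ratio, and beyond the lists the 12 or 15 ranked first by the end of the interval nearest 1; other genes were named after their values were seen. The members and lists were chosen with earlier results of these data known. Alternatives changed the UMI, Foxp3, C1q and Cd4 limits, depth, low-count filter, free RNA and averaging; a limit of 5000 UMIs was added after seeing the data. A few members of the lists, and 1 split of the cells, are not reported here.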

Additional observations from a re-analysis of the deposited data

Results flagged for a closer look

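For 4 genes the ratio of knockdown over control lay past 1.5-fold in regulatory T cells and past it in the opposite direction in conventional CD4 T cells, and the difference between the classes was not tested. Frmd5 had a ratio of 2.01 in regulatory and 0.451 in conventional cells. Bcl2l1, a survival factor, had 1.74 and 0.428. Ifitm1, an interferon-induced membrane protein, had 3.54 and 0.333, with 10 of the 18 knockdown UMIs in 1 regulatory T cell. Mcm3, a helicase subunit, had 0.0828 in regulatory T cells, with 8 of the 19 control UMIs in 1 cell, and 0 control against 8 knockdown UMIs in conventional cells.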

How the results depend on the processing

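No paired analysis was possible because each group is 1 library and no test was run. With 147 cells, genes of under about 20 UMIs could not be compared, and knockdown cells were shallower and held more free RNA. The share ratios, knockdown over control, were 0.257 of T cells and 0.396 of kept cells with at least 2000 UMIs, and 0.231 and 0.441 with at least 2 Foxp3 UMIs. The counts of genes past the fold were 391 higher and 601 lower between libraries and 134 higher and 111 lower between classes. With at least 2 Foxp3 UMIs they were 368 lower, and 71 and 169 between classes. With 0 UMIs of C1q, Hmga2 and Rhox5 they were 201 and 277, and 54 lower between classes. With at least 1 Cd4 UMI they were 168 and 232, and 179 lower between classes. Thinned to 800 UMIs they were 132 and 157, and 55 and 36. With at least 50 UMIs per gene they were 108 and 125, and 39 and 37, and with at least 10 they were 919 and 1258, and 276 and 225. With conventional cells lacking Il2ra and Ikzf2, 269 were higher between classes, and with at most 5000 UMIs 356 were lower between libraries. Genes within the fold are not listed here, although Ctla4, knockdown over control, turned with at least 2 Foxp3 UMIs and Ccr2 with at least 2000 UMIs per cell. Among genes past the fold with an interval off 1, directions turned on the log2 scale as follows. With at least 2 Foxp3 UMIs, knockdown over control was 0.29 for Itgb8, 0.048 for Nfkbia and 0.59 for Isg20, and regulatory over conventional in knockdown was 0.18 for Pdcd1. With at least 1 Cd4 UMI, knockdown over control was −0.13 for Cst3, −1.72 for Frmd5 and 0.34 for Dnajb1. As a mean of CPM per cell Ifitm1 was −0.71, at equal depth Eno1 was 0.32 and Pdcd1, regulatory over conventional in control, 0.61, and with at most 5000 UMIs Mki67 was 0.33. Fewer cells or genes enter most of these settings by construction; the cause was not tested for the others. Limiting other-lineage UMIs to 2% left the 70 and 77 cells as they were.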

Other observations

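Adhesion and signalling genes outside the comparisons above gave a few more values. Traf3, an adaptor that limits non-canonical NF-kB signalling, was higher in regulatory than in conventional CD4 T cells, at 3.15-fold (1.88 to 5.57) in control and 1.63-fold (1.06 to 2.51) in knockdown. Tnfrsf13b, a receptor for BAFF and APRIL better known from B cells, was 2.84-fold (0.925 to 11.6) and 2.57-fold (0.909 to 8.23) higher, with intervals that include 1. Among T cell inhibitory and adhesion receptors, Cd226 stood at 0.311 (0.107 to 0.811) and 0.118 (0.0134 to 0.487) of the conventional level, and Tigit, which shares ligands with Cd226, at 1.40 (0.632 to 3.33) and 7.10 (1.58 to 65.3).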
